A study of Homo sapiens with 42 samples.

Results

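Of the 42 libraries in the series, 6 input RNA libraries measured what everolimus added to quizartinib in MOLM-13 cells kept in stromal medium. MOLM-13 is an acute myeloid leukemia (AML) line that carries an activating internal tandem duplication in the receptor kinase FLT3. All 6 cultures were grown in hBMSC-CM, a medium conditioned by human bone marrow stromal cells, and all received 3 nM of quizartinib (AC220), an inhibitor of FLT3. Of these, 3 cultures received nothing more (quizartinib group) and 3 also received 10 nM of everolimus (combo group), for 12 hours. The libraries were chosen by their labels and not by any value. Conditioned medium carries what stromal cells secrete and holds no stromal cells, and all cultures came from 1 cell line.

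Everolimus binds the immunophilin FKBP12 and blocks mTORC1, the kinase complex built on mTOR and RPTOR that couples growth factors and amino acids to protein synthesis. Active mTORC1 drives the making of ribosomes, raises the translation of messages that encode ribosomal proteins, and promotes transcription for sterol, nucleotide and amino acid synthesis through SREBP, MYC and ATF4. FLT3-ITD signals through PI3K, ERK and STAT5, and some of its output also reaches mTORC1, so that the comparison of the 2 groups asks which messages still depended on mTORC1 once FLT3 was inhibited in stromal medium.

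Total counts were 27.3, 29.6 and 19.4 M in the 3 quizartinib libraries and 29.7, 32 and 28.4 M in the 3 combo libraries. Mitochondrially encoded messages took 8.02% and 7.57% of the counts in the replicate 1 libraries of quizartinib and combo, and between 3.78% and 3.98% in the other 4 libraries, so this share moved with the replicate number and not with the drug. All 10 AML markers, among them CD33, MPO and FLT3, exceeded 10 CPM (counts scaled to a common library size) in both groups, with a summed level of 1830 to 1980 CPM under quizartinib and 1830 to 2120 CPM in the combo. Of 20 stromal markers, 13 had any count under quizartinib and 11 in the combo, their summed level was 162 to 204 and 136 to 189 CPM, and IGFBP7 alone held 152 and 134 CPM of it on average. COL3A1, THY1, LUM and CXCL12 had no count in any of the 6 libraries. All 8 erythroid markers stayed at or under 0.169 CPM in sum. The 10 lymphoid markers summed to 56.8 to 74.4 CPM under quizartinib and 58.9 to 85.6 CPM in the combo, most of it NCAM1. Values below are CPM scaled by trimmed mean of M values (TMM) factors. They are shares of a library's RNA, so a drop in RNA per cell cannot be told apart from a drop in the number of cells that made a message. The labels number the replicates without saying that they are separate cultures, and p-values then measure the spread between these samples.

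Adding everolimus lowered 31 messages and raised none at an adjusted p under 0.05. The genes that fell held chaperones of the endoplasmic reticulum (ER), ribosome assembly factors, enzymes of nucleotide, proline, polyamine and sterol synthesis, and DNA replication and cell cycle genes. The falls ranged from 1.57-fold for LRRC59 to 5.74-fold for SLC39A14, and 24 of the 31 were at least 2-fold. All 31 were lower in each of the 3 same-numbered pairs (27.9% of all genes tested were), and in 30 of the 31 the libraries of the 2 groups did not overlap, which is a description since these libraries chose the genes. The share of all genes tested without such overlap was not counted. A lack of overlap, here and below, therefore describes levels and adds nothing to a test. The 31 genes were 0.24% of the 12939 tested (edgeR quasi-likelihood fit over all 42 libraries, Benjamini-Hochberg adjustment), and the share called higher was 0%. Input and polysome libraries of the same culture entered this fit as separate samples. It has no term for the culture, so its p-values treat the 2 libraries of a culture as independent.

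The number of calls depended on how the replicate number was handled. Same-numbered libraries of the 2 groups deviated together from their group means (correlations over genes 0.66, 0.44 and 0.65). With the replicate number as a block in the 42-library fit, 142 genes were lower (1.1%) and 12 higher (0.0927%). This block also spans the everolimus libraries, whose numbers did not pair with those of vehicle, as given below. With the block and the 6 libraries alone, which leave 2 residual degrees of freedom, 1811 genes were lower (14%) and 1556 higher (12%), and the same 6 libraries without the block gave 0 calls, with 1063 genes at an unadjusted p under 0.05. The SE of the 6-library block fit can lie below the spread of the pairs. For HSPA5 it was 0.06, while the pairs changed by -1.42, -1.11 and -1.53 (log2). Calls of that fit are therefore no measure of replicate spread, and its counts below are descriptions. All 31 genes were called in both block fits. Without the block, the count fell to 4 without combo replicate 1, 3 without quizartinib replicate 2, 4 without quizartinib replicate 3 and 19 without combo replicate 2, and rose to 74 without quizartinib replicate 1.

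**Figure D1:**
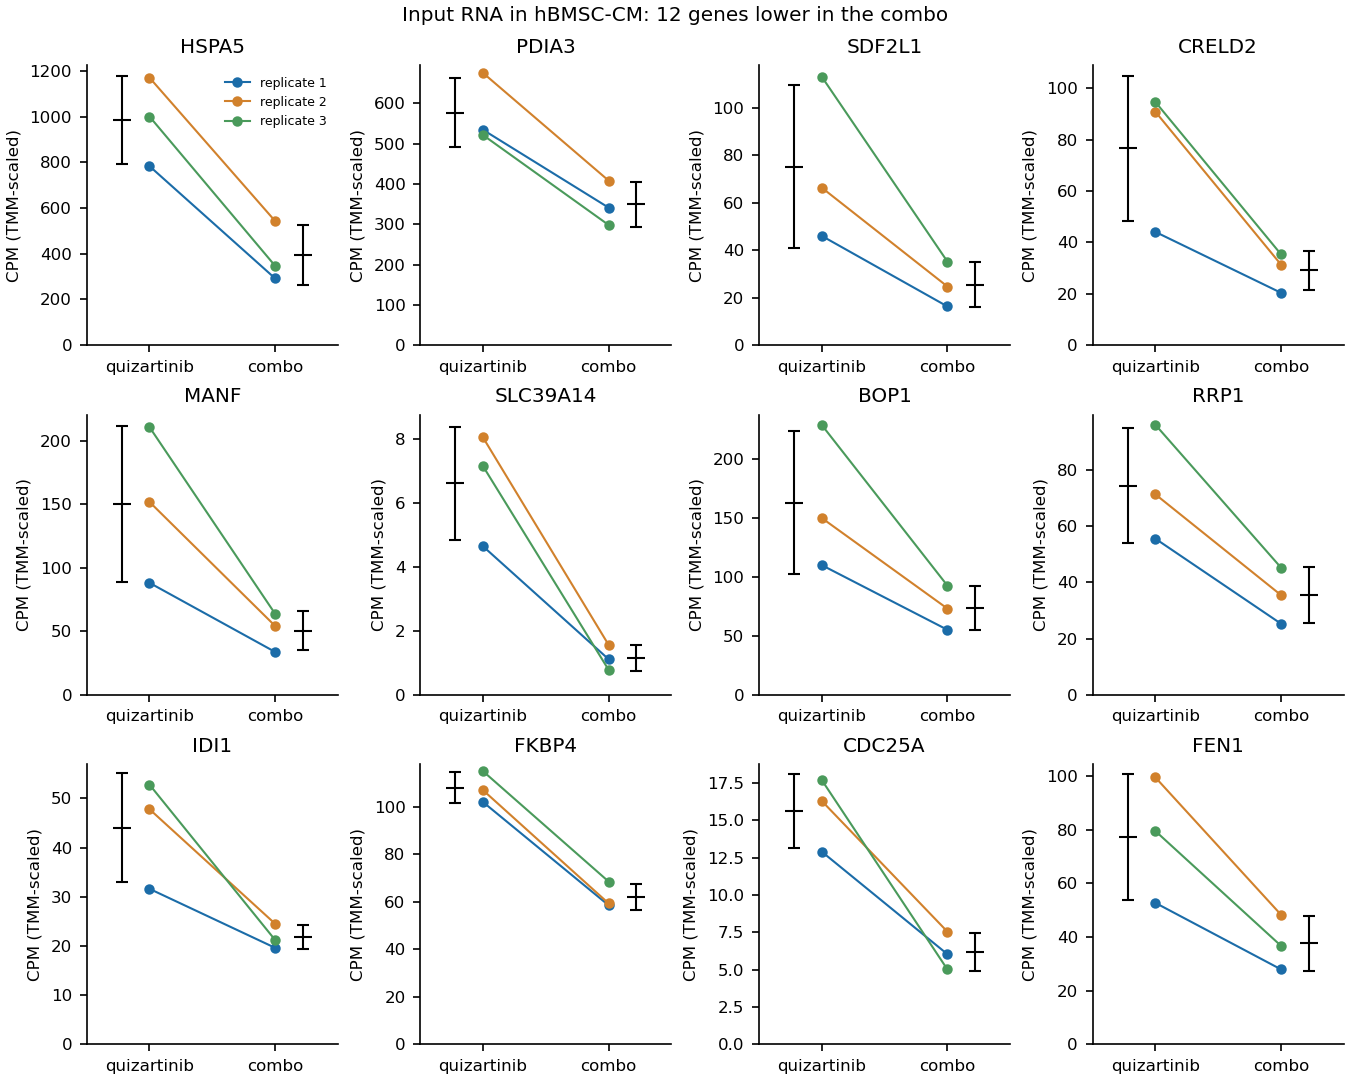
Levels of 12 of the 31 genes that fell, in TMM-scaled CPM on axes that start at 0, with 1 panel a gene. Points are libraries, lines join the same replicate number, and black bars beside them give the mean and SD of 3 libraries. Every line slopes down from quizartinib to combo, and the groups do not overlap in any of the 12 panels.

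ER chaperones and folding enzymes held 5 of the 31 called genes. HSPA5 (BiP, the main Hsp70 of the ER lumen) lies on chromosome 9 (125234853 to 125241382, GRCh38, minus strand). The level of HSPA5 was 783, 1170 and 1000 CPM under quizartinib and 292, 543 and 347 CPM in the combo. The highest combo library lay below the lowest quizartinib library, and the log2 change was -1.32 ± 0.28 (SE; adjusted p = 0.0277). PDIA3, a disulfide isomerase that works on glycoproteins, went from 534, 675 and 521 CPM to 341, 408 and 298 CPM (log2 -0.72 ± 0.16, adjusted p = 0.0432).

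The smaller ER proteins changed by more than PDIA3 did in the fitted values. SDF2L1, a partner of the ER Hsp40 proteins, went from 46, 66.3 and 113 CPM to 16.3, 24.7 and 35.2 CPM (log2 -1.56 ± 0.33, adjusted p = 0.0277). CRELD2, an ER protein with disulfide isomerase motifs, went from 44.1, 90.9 and 94.7 CPM to 20.4, 31.4 and 35.4 CPM (log2 -1.4 ± 0.29, adjusted p = 0.0223). MANF, a resident ER protein that can be secreted under stress, went from 88.2, 152 and 211 CPM to 33.7, 54.2 and 63.8 CPM (log2 -1.57 ± 0.36, adjusted p = 0.0432). In all 3 the quizartinib values spread over more than 2-fold between replicates, replicate 1 was lowest in both groups, and each pair fell. Of the 33 tested genes of ER chaperones and folding, 5 were lower and 0 higher, and 9 were lower with the block. A change below 0 was fitted for 28 (49.7% of all genes), and the median log2 change was -0.3 against 0 for all genes tested. HSP90B1 (GRP94), the ER Hsp90, had 556, 928 and 697 CPM under quizartinib and 345, 545 and 400 CPM in the combo, with no overlap, and did not pass (log2 -0.76 ± 0.33, adjusted p = 0.689, and 0.252 with the block). LRRC59, an ER membrane protein that binds ribosomes, is in none of the lists and fell from 110, 116 and 105 CPM to 67.9, 81.9 and 60.9 CPM, with 19.6% of its exonic bases overlapped on the other strand.

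The RefSeq promoters of HSPA5 and CRELD2 share a sequence feature. Both hold the ER stress response element (ERSE), which ATF6 and NF-Y are known to bind, and the stretches below show it in capitals. HSPA5 is given on its minus strand (chr9:125241383-125241449) and CRELD2 on its plus strand (chr22:49918514-49918607), both as RefSeq promoters on GRCh38.p14. After the element, each stretch stops before any annotated exon base. The bases up to the end of the element were not checked against exons. In CRELD2 the element lies in reverse. The CRELD2 stretch precedes the RefSeq start at 49918634 and lies within the GENCODE gene, which starts upstream, at 49918167.
HSPA5: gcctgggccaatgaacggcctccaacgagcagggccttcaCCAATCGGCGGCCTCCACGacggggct
CRELD2: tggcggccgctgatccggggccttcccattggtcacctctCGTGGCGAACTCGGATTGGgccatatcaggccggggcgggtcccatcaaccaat
The search was for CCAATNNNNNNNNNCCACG on both strands from 250 bases before to 50 after the gene start. It was found in 0.157% of the 8943 tested genes with a promoter sequence, and in 2 of the 23 called genes with one. The element was searched for as a known feature of ER stress genes such as HSPA5. The 2 of 23 is therefore a description and was not tested against 0.157%. For PDIA3, SDF2L1 and MANF there was no match or no promoter sequence. The UPR element core TGACGTG was in 2.64% of promoters and in 1 of the 23 (LRRC59). The ATF4 element TGATGNAA was in 1.55% and in 0 of the 23. The E-box CACGTG, which MYC and its relatives bind, was in 10.5% and in 5 of the 23 (B4GALT2, CCDC86, FEN1, SRM and TEF). None of the matches in these genes overlapped another motif. A match is a string of letters and not a measured binding site. Promoters of the other 8 called genes were not analysed here.

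Sensors and factors of the unfolded protein response had no calls in the fits with 42 libraries. Of 13 tested genes 0 were called there in either direction, also with the block, and their median log2 change was 0.05. In the 6-library fit with the block 3 were higher and 1 lower (12% and 14% of all genes were). XBP1, the transcription factor activated by IRE1, had 215, 247 and 191 CPM under quizartinib and 175, 209 and 186 CPM in the combo (adjusted p = 1). ATF6 had 53.7, 42.2 and 30.9 CPM against 59, 48.9 and 39.4 CPM, and DDIT3 (CHOP) had 9.64, 11.4 and 18.8 CPM against 8.85, 10.4 and 14.7 CPM. The values of all 3 overlapped. ER-associated degradation (22 tested, median -0.12), ER translocation and N-glycosylation (31 tested, median -0.11) and ER to Golgi transport (27 tested, median -0.13) had 0 calls in both fits with 42 libraries. In the 6-library fit with the block 5, 12 and 7 of their genes, in this order, were lower (14% of all genes were). There 0, 2 and 2 were higher.

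Ribosome assembly was 1 of 2 gene lists, of 34, whose median lay below -0.6, beside cholesterol synthesis. Of 51 tested genes of ribosome biogenesis 2 were lower, 13 were lower with the block and the median log2 change was -0.65. In the fit of the 6 libraries with the block 46 were lower (14% of all genes were). In each of the 3 pairs 49 of the 51 were lower (27.9% of all genes were). Medians within pairs 1, 2 and 3 were -0.66, -0.56 and -0.7. BOP1, which helps mature the RNA of the large ribosomal subunit, had 110, 150 and 229 CPM under quizartinib and 55.1, 73.1 and 92.6 CPM in the combo (log2 -1.15 ± 0.26, adjusted p = 0.0432). RRP1, a nucleolar assembly factor, had 55.6, 71.4 and 96.2 CPM against 25.3, 35.5 and 45.3 CPM (log2 -1.07 ± 0.25, adjusted p = 0.0484). Both held replicate 1 as the lowest and replicate 3 as the highest library in each group, with every pair falling.

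A further 11 assembly factors of the list passed only with the block, among them NOP16, MRTO4 and GRWD1. NOP16 had 41.8, 52.1 and 88.1 CPM against 16.5, 20.3 and 32.6 CPM (adjusted p = 0.138, and 0.0208 with the block). MRTO4 had 50.5, 70.3 and 91.3 CPM against 22.4, 33.8 and 39.2 CPM (adjusted p = 0.0882, and 0.00627 with the block), and GRWD1 had 69.6, 85 and 100 CPM against 39.5, 48.6 and 53.4 CPM (adjusted p = 0.0757, and 0.0175 with the block). The groups did not overlap for any of the 3. CCDC86, a nucleolar protein outside the list, had the smallest adjusted p of all genes: it fell from 31.4, 32.1 and 35.3 CPM to 10.7, 13.5 and 14.8 CPM (log2 -1.34 ± 0.21, adjusted p = 0.00209), and 17.4% of its exonic bases are overlapped on the other strand. SNHG3, a noncoding host of small nucleolar RNAs, fell from 41.3, 66.2 and 86.5 CPM to 22.6, 30.6 and 35.8 CPM, and 11% of its exonic bases are shared with RCC1 and SNORA73A on the same strand.

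The messages of ribosomal proteins had no calls in input RNA in the fits with 42 libraries. Of 77 tested cytosolic ribosomal protein genes 0 were called there, also with the block. Their median log2 change was 0.06, and 19 were below 0 (49.7% of all genes were). In the 6-library fit with the block 17 were higher and 3 lower (12% and 14% of all genes were). All 3 pairs rose for 30 (25.7% of all genes) and fell for 5. RPL4 had 3340, 2910 and 2950 CPM under quizartinib and 3850, 3240 and 3360 CPM in the combo (adjusted p = 1). In the heavy polysome RNA of the same cultures, which holds messages loaded with several ribosomes, the same list had a median of -0.6 (pairs -0.4, -0.36 and -1.03) against 0.01 for all genes, with 2 genes lower (0.0618% of all genes were called lower there) and 18 lower with the block (0.773% of all genes). Ribosomal protein genes have many processed copies in the genome, which can take reads from them. In this input comparison the study reported lower gene sets of translation regulation, from a test of whole sets that was not run here. Of 40 translation factors 11 were higher and 12 lower in the 6-library fit with the block. With 42 libraries 0 were called, 1 was lower with the block, and the median was -0.09. That gene was EIF3B, a subunit of the initiation factor that recruits the small ribosomal subunit, with 317, 345 and 393 CPM against 211, 252 and 258 CPM (adjusted p = 0.106, and 0.025 with the block).

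**Figure D2:**
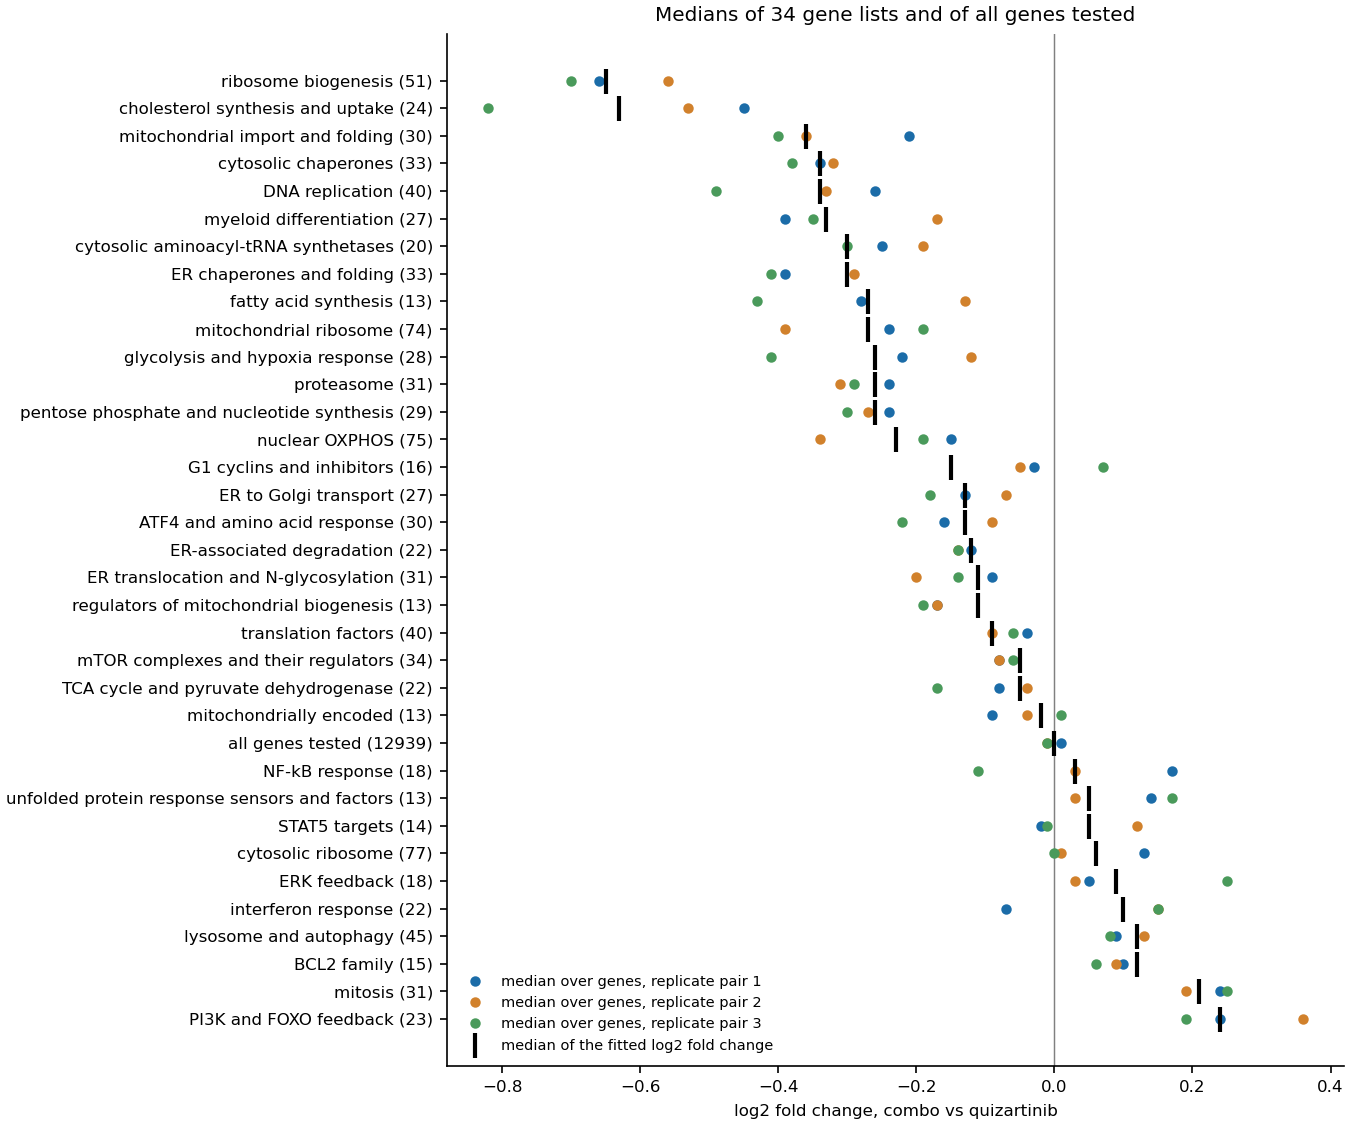
Median log2 fold change of combo against quizartinib for each of 34 gene lists and for all 12939 genes tested, with the number of genes tested in brackets. Colored points are medians within the 3 same-numbered pairs and black ticks are medians of the fitted change. Ribosome biogenesis (-0.65) and cholesterol synthesis (-0.63) lie farthest to the left, PI3K and FOXO feedback (0.24) and mitosis (0.21) farthest to the right, and all genes tested lie at 0.

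Cholesterol synthesis and uptake came next. All 24 tested genes had a fitted change below 0 (49.7% of all genes did), with a median of -0.63, 1 lower and 7 lower with the block. IDI1, which makes dimethylallyl diphosphate for sterols and isoprenoids, had 31.6, 47.8 and 52.8 CPM under quizartinib and 19.6, 24.5 and 21.2 CPM in the combo (log2 -1.02 ± 0.23, adjusted p = 0.0479), and 15% of its exonic bases overlap IDI2-AS1 on the other strand, whose reads cannot be separated without strand. DHCR7, which reduces dehydrocholesterol to cholesterol, had 20, 27.8 and 27.7 CPM against 7.35, 14.2 and 8.41 CPM (adjusted p = 0.109, and 0.0184 with the block). ACAT2, MSMO1 and NSDHL of the same pathway also passed only with the block (adjusted p = 0.0304, 0.0376 and 0.0299). The groups did not overlap for these genes.

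The 2 controllers of the pathway named here, INSIG1 and SREBF1, did not pass. INSIG1, which holds SREBP in the ER, had 18.5, 14.9 and 18.6 CPM against 8.41, 9.07 and 6.6 CPM (log2 -1.11 ± 0.4, adjusted p = 0.398, and 0.137 with the block). SREBF1, which encodes an SREBP, had 83.4, 103 and 119 CPM against 79.7, 107 and 97.2 CPM, with overlap. Among 13 genes of fatty acid synthesis 0 were called and 1 was lower with the block: FASN, the fatty acid synthase, had 102, 165 and 168 CPM against 41.7, 103 and 56.9 CPM (adjusted p = 0.165, and 0.0429 with the block), with the second combo library inside the range of quizartinib. LRP8, a lipoprotein receptor outside these lists, fell from 13.6, 17.9 and 17.6 CPM to 5.45, 9.88 and 7.55 CPM (adjusted p = 0.0277).

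Cytosolic chaperones had 2 called genes, both partners of Hsp90. FKBP4 (FKBP52), a cochaperone of steroid receptors and a relative of FKBP12, had 102, 107 and 115 CPM under quizartinib and 58.5, 59.3 and 68.5 CPM in the combo (log2 -0.8 ± 0.15, adjusted p = 0.0132). STIP1 (HOP), which links Hsp70 to Hsp90, had 220, 248 and 282 CPM against 132, 161 and 152 CPM (log2 -0.75 ± 0.15, adjusted p = 0.0191). Replicates lay close together here, and a change of less than 2-fold passed. AHSA1, the activator of the Hsp90 ATPase, had 111, 108 and 92.1 CPM against 66.5, 60 and 56.9 CPM and passed with the block only (adjusted p = 0.0728, and 0.0125). Of the 33 tested genes 31 were below 0 (49.7% of all genes were), with a median of -0.34. The proteasome, with 31 genes, had 0 calls in both fits with 42 libraries and a median of -0.26. In the 6-library fit with the block 24 were lower and 1 higher (14% of all genes were lower). All 3 pairs fell for 25 (27.9% of all genes).

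Single enzymes that make building blocks fell in several pathways. Among 29 genes of pentose phosphate and nucleotide synthesis 1 was lower and 5 with the block (median -0.26). UMPS, which makes uridine monophosphate, had 20.4, 19.8 and 22.3 CPM under quizartinib and 10.1, 11.7 and 10.7 CPM in the combo (log2 -0.94 ± 0.18, adjusted p = 0.0132). CTPS1, which makes CTP, had 31.7, 26.9 and 24.2 CPM against 17.4, 17.9 and 16.2 CPM. PPAT, which opens purine synthesis, had 12.3, 12.9 and 9.59 CPM against 7.44, 7.06 and 4.78 CPM. CTPS1 and PPAT passed only with the block (adjusted p = 0.0208 and 0.0334). NME1, a nucleoside diphosphate kinase, had 10.9, 13.9 and 21.7 CPM against 2.81, 4.42 and 8.99 CPM (adjusted p = 0.107, and 0.00631 with the block), but 18.7% of its exonic bases are shared with the NME1-NME2 readthrough gene. PNP, a purine salvage enzyme outside the list, fell from 68.6, 80 and 71.1 CPM to 39.9, 48.7 and 43.5 CPM (adjusted p = 0.0277).

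PYCR1, the last enzyme of proline synthesis, was the 1 called gene of 30 in the ATF4 and amino acid list. It had 17.7, 29.7 and 32.5 CPM under quizartinib and 6.5, 11.5 and 12.4 CPM in the combo (log2 -1.39 ± 0.25, adjusted p = 0.00985). SLC7A1, the arginine and lysine carrier, had 40.9, 48.9 and 45.3 CPM against 19.6, 27.3 and 18.3 CPM and lay just above the threshold (adjusted p = 0.0518, and 0.0123 with the block). The list's median was -0.13, and 3 genes were lower with the block. ATF4 itself had 291, 255 and 598 CPM against 380, 289 and 571 CPM (adjusted p = 1), with replicate 3 high in both groups, and its target TRIB3 had 16.9, 13 and 14 CPM against 12, 11.1 and 10.8 CPM (adjusted p = 1). ASNS was not tested: its count did not exceed 0.469 CPM in any of the 6 libraries, and 49.3% of its exonic bases are shared with ENSG00000284707 on the same strand, so the count does not show its level. Among 20 cytosolic aminoacyl-tRNA synthetases (median -0.3) both subunits of the phenylalanine enzyme passed with the block: FARSB had 27.2, 31 and 40.8 CPM against 12.8, 15.1 and 17.9 CPM (adjusted p = 0.0728, and 0.00771 with the block), and FARSA had 172, 218 and 235 CPM against 97.6, 129 and 127 CPM (adjusted p = 0.105, and 0.0242 with the block).

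Several metabolic genes outside the lists were among the 31. SRM, which makes spermidine, fell from 53.9, 60.4 and 85.4 CPM to 27.5, 26.8 and 36.3 CPM (log2 -1.14 ± 0.23, adjusted p = 0.0182). ALDH1B1, a mitochondrial aldehyde dehydrogenase, fell from 17.4, 19.2 and 18.5 CPM to 6.15, 7.79 and 10.1 CPM (log2 -1.2 ± 0.27, adjusted p = 0.0432). HPDL, a mitochondrial dioxygenase relative, fell from 15.3, 16.5 and 12.9 CPM to 2.58, 8.5 and 5.48 CPM (log2 -1.43 ± 0.31, adjusted p = 0.0335). SLC39A14 (ZIP14), a carrier of zinc, iron and manganese, showed the largest fall of the 31, from 4.65, 8.06 and 7.16 CPM to 1.11, 1.56 and 0.778 CPM (log2 -2.52 ± 0.44, adjusted p = 0.00588), and with SLC39A14, TEF and WWC1 the largest falls included messages of few counts. TEF, a PAR bZIP transcription factor, went from 3.75, 2.94 and 2.87 CPM to 1.35, 1.11 and 0.836 CPM, and WWC1 (KIBRA), a scaffold of the Hippo pathway, from 3.17, 4.9 and 5.57 CPM to 0.82, 1.99 and 1.79 CPM. The groups did not overlap for any of these 6 genes.

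Exonic bases overlapped by other genes also made up 11.4% (other strand) in FKBP4, 14.1% (same strand) and 15.6% (other strand) in PYCR1, 17.5% (same strand) in PLD6 and 10.0% (same strand) in ANKLE1. The remaining called genes had varied roles. B4GALT2, a Golgi galactosyltransferase, fell from 9.9, 11.9 and 18.2 CPM to 4.1, 3.75 and 5.59 CPM, and EEF2KMT, which methylates elongation factor 2, from 7.43, 8.34 and 9.81 CPM to 3.22, 4.32 and 4.35 CPM, with 31.4% of its exonic bases overlapped by ALG1 on the other strand. PLD6, a phospholipase of the mitochondrial surface, fell from 10.3, 12.4 and 20.2 CPM to 3.66, 6.86 and 5.65 CPM, and PHACTR3, a regulator of protein phosphatase 1, from 30.3, 31.8 and 32.8 CPM to 17.2, 18.8 and 18.4 CPM. MSTO1 (misato), linked to mitochondrial shape, was the 1 gene of the 31 whose groups overlapped: it had 6.47, 10.2 and 19.4 CPM under quizartinib and 3.63, 4.1 and 6.77 CPM in the combo.

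DNA replication and the entry into S phase held 2 called genes, and mitosis held none. CDC25A, the phosphatase that activates CDK2 for entry into S phase, had 12.9, 16.3 and 17.7 CPM under quizartinib and 6.03, 7.54 and 5.01 CPM in the combo (log2 -1.34 ± 0.22, adjusted p = 0.00349), and FEN1, the flap nuclease of lagging strand synthesis, had 52.7, 99.5 and 79.5 CPM against 27.9, 48.3 and 36.7 CPM (log2 -1.04 ± 0.21, adjusted p = 0.0192). ANKLE1, a nuclease outside the lists, fell from 38.6, 50 and 68.8 CPM to 16, 27.3 and 33.2 CPM (adjusted p = 0.0432). CDC25A was the 1 gene lower among 16 tested G1 cyclins and inhibitors (median -0.15). The 40 tested replication genes had 1 lower, 5 lower with the block and a median of -0.34, and GINS2 (adjusted p = 0.0613, and 0.0208 with the block), MCM4 (0.071, and 0.0208) and UNG (0.107, and 0.0299) passed with the block. Of 31 mitosis genes 0 were called in either fit with 42 libraries, the median was 0.21, and 20 were higher in each of the 3 pairs (25.7% of all genes were). TOP2A had 178, 134 and 67.4 CPM against 262, 234 and 122 CPM (adjusted p = 0.742). In the 6-library fit with the block, 15 mitosis genes were higher and 0 lower, beside 12% of all genes higher.

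Nuclear genes of oxidative phosphorylation (OXPHOS) had small values of one sign for the most part in input RNA. The study followed OXPHOS in polysomes. It also reported, from a test of whole gene sets, lower OXPHOS genes with everolimus in this same input comparison. Sets of mTORC1 signaling, MYC targets and translation regulation were reported as lower there too. Calls below are of single genes, and no gene set was tested here. Of 75 tested genes 0 were called and 1 was lower with the block. A change below 0 was fitted for 68 (49.7% of all genes), with a median of -0.23 (pairs -0.15, -0.34 and -0.19). The 1 gene lower with the block, ATP5MC1, encodes the c ring subunit of ATP synthase. It had 25.6, 33.1 and 50.4 CPM under quizartinib and 12.9, 17.1 and 22.7 CPM in the combo (log2 -1.05 ± 0.32, adjusted p = 0.218, and 0.0208 with the block). In the 6-library fit with the block 34 OXPHOS genes were lower and 0 higher (14% of all genes were lower). All 3 pairs fell for 50 (27.9% of all genes). In heavy polysome RNA, not divided by input, the OXPHOS median was -0.35. The mitochondrial ribosome (74 genes, median -0.27) had 0 calls and 2 with the block, MRPL17 (40.5, 37.2 and 64.4 CPM against 26, 18.5 and 27 CPM) and MRPS25 (46.5, 61.5 and 77.8 CPM against 34.7, 39.1 and 47.9 CPM), with adjusted p = 0.00294 and 0.0185 and an overlap of the groups in MRPS25, whose exonic bases are overlapped by 39.1% on the other strand. Mitochondrial import and folding (30 genes) had a median of -0.36 and the TCA cycle (22 genes) of -0.05, both with 0 calls. In the 6-library fit with the block 38 genes of the mitochondrial ribosome were lower and 2 higher. There 16 import genes were lower and 1 higher, and 7 TCA cycle genes were lower and 0 higher. IDH3A had 29.8, 29.8 and 33.3 CPM against 19.4, 19.9 and 22.2 CPM (adjusted p = 0.165, and 0.0668 with the block), with 38.8% of exonic bases overlapped on the other strand. The 13 mitochondrially encoded genes had a median of -0.02 and 0 calls. Among regulators of mitochondrial biogenesis PPRC1 passed with the block (48.8, 65.6 and 98.5 CPM against 24.4, 37.3 and 57.4 CPM, overlapping, adjusted p = 0.0469), and PPARGC1A did not exceed 0.993 CPM in any of the 6 libraries and was not tested. From input RNA the study named IDH3A and PGC1-α (PPARGC1A) as restored by hBMSC-CM in a way that needed mTOR. Here IDH3A was lower without passing (log2 -0.6 ± 0.17), and PPARGC1A lay under the filter.

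The mTOR complexes and their regulators, 34 tested genes, had 0 calls in both fits with 42 libraries and a median of -0.05. In the 6-library fit with the block 6 were lower and 5 higher. MTOR had 64.4, 67.9 and 64.7 CPM against 60.5, 74.9 and 50.1 CPM, RPTOR had 44.5, 58.7 and 68 CPM against 35.4, 56 and 52.2 CPM, and the S6 kinase gene RPS6KB1 had 22.1, 23.2 and 12.4 CPM against 18.9, 20.4 and 12 CPM. The groups overlapped for each. EIF4EBP1, the translation repressor that mTORC1 phosphorylates, had 49.4, 41.4 and 56.2 CPM against 32.9, 33.4 and 44.9 CPM (adjusted p = 0.897). The stress-induced inhibitors of mTORC1 had overlapping levels: DDIT4 (REDD1) had 165, 140 and 280 CPM against 155, 143 and 245 CPM, and SESN2 had 22.4, 20.3 and 25.1 CPM against 25.8, 24.3 and 24.5 CPM.

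No gene was called higher without the block, and 12 were with it. The 10 with the largest rise among those at 10 CPM or more and higher in all 3 pairs were CREBRF, PIM2, PIK3IP1, ITPRIPL2, FRAT1, TSC22D3, KLHL24, GABARAPL1, UBALD2 and ZCCHC14. CREBRF, a regulator that promotes loss of the factor CREB3, had 9.42, 7.1 and 5.3 CPM under quizartinib and 20.3, 17.6 and 14.8 CPM in the combo (log2 1.27 ± 0.35, adjusted p = 0.125, and 0.0313 with the block). PIM2, a serine kinase whose gene is a target of STAT5, had 40, 40.2 and 37.5 CPM against 67.8, 66.9 and 93.2 CPM (log2 0.95 ± 0.24, adjusted p = 0.093, and 0.0103 with the block). PIK3IP1, a membrane inhibitor of PI3K, had 10.6, 13.1 and 9.41 CPM against 20.5, 23.9 and 19.3 CPM (log2 0.94 ± 0.29, adjusted p = 0.213, and 0.0385 with the block). In these 3 genes the lowest combo library lay above the highest quizartinib library.

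FRAT1, an inhibitor of GSK3, had 22.3, 20.9 and 12.6 CPM against 34.6, 30.9 and 35 CPM (adjusted p = 0.0882, and 0.014 with the block). TSC22D3 (GILZ), a target of FOXO and of the glucocorticoid receptor, had 35.2, 33.7 and 53.4 CPM against 76.2, 57.5 and 83.5 CPM (0.131, and 0.0254), and GABARAPL1, an autophagosome protein, had 34.4, 41.4 and 30.7 CPM against 53.6, 63.5 and 61.4 CPM (0.504, and 0.031). The groups did not overlap for any of the 3. KLHL24, ITPRIPL2 and UBALD2 had adjusted p of 0.0357, 0.0255 and 0.0439 with the block and no overlap, and ZCCHC14 (0.0335 with the block) overlapped. The PI3K and FOXO feedback list (23 tested) had 0 calls, 1 higher with the block, 21 members at or above 0 and a median of 0.24. In the 6-library fit with the block 12 of its members were higher and 0 lower, beside 12% of all genes higher. CCNG2 (12.2, 13.6 and 5.88 CPM against 28.9, 24.4 and 9.86 CPM) and KLF6 (14.2, 14.4 and 16.8 CPM against 23.3, 23 and 31.7 CPM) of that list did not pass with 42 libraries (adjusted p = 0.813 and 0.344). Lysosome and autophagy genes (45 tested) had a median of 0.12.

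**Figure D3:**
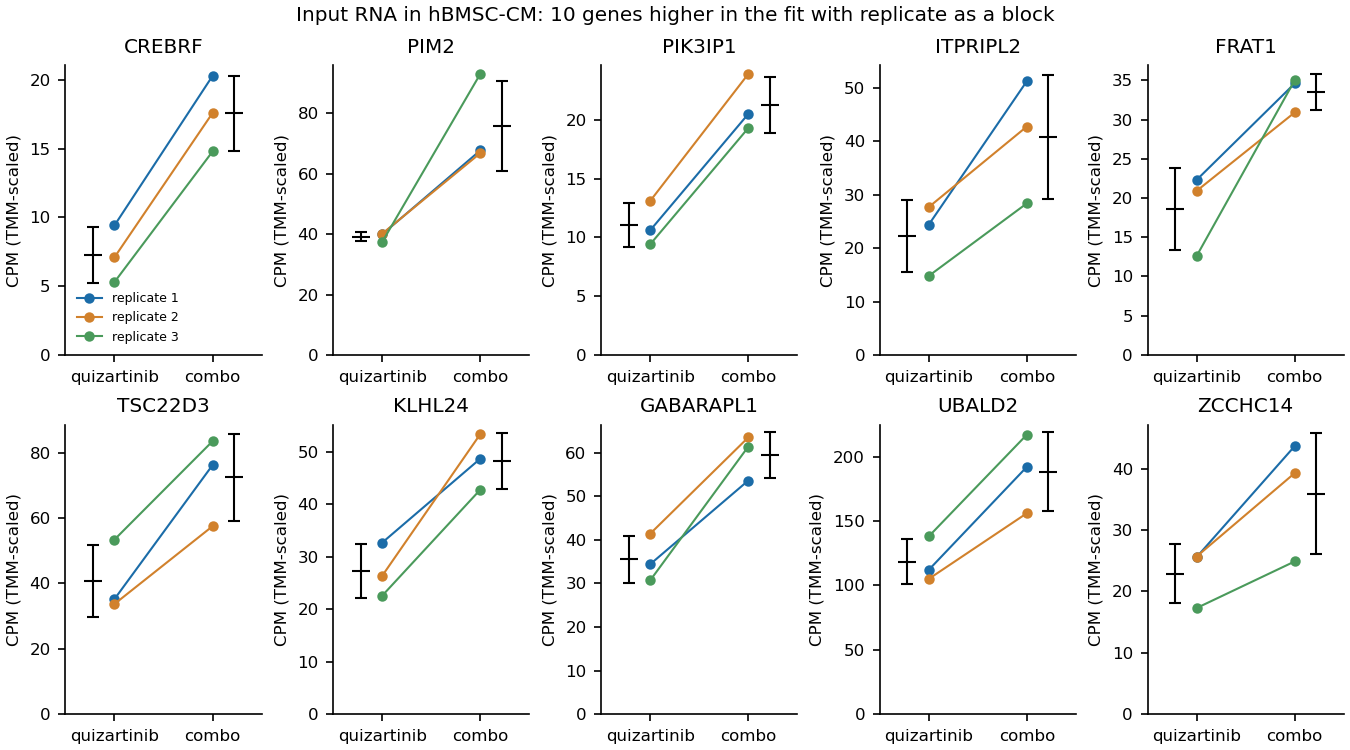
Levels of the 10 genes with the largest rises that passed with the replicate number as a block, in TMM-scaled CPM on axes that start at 0. Points are libraries, lines join the same replicate number, and black bars give the mean and SD of 3 libraries. Every line slopes up, and in ZCCHC14 the replicate 3 combo library (24.9 CPM) lies below 2 quizartinib libraries (25.6 and 25.7 CPM).

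Outputs of FLT3 and of survival signalling showed few changes. FLT3 had 64.8, 61.4 and 32.6 CPM under quizartinib and 71.8, 79.3 and 39 CPM in the combo, and PIM1 had 256, 186 and 252 CPM against 277, 239 and 352 CPM (adjusted p = 1 for both). MYC had 447, 321 and 361 CPM against 273, 291 and 309 CPM with no overlap (log2 -0.37 ± 0.29, adjusted p = 1, and 0.714 with the block). STAT5 targets (14 tested) had a median of 0.05, ERK feedback (18 tested) 0.09, NF-kB response genes (18 tested) 0.03 and interferon response genes (22 tested) 0.1, with 0 calls in each except PIM2 with the block. Of 15 tested BCL2 family genes 0 were called in both fits with 42 libraries (median 0.12). In the 6-library fit with the block 4 were higher and 1 lower. The antiapoptotic MCL1 had 168, 163 and 171 CPM against 192, 193 and 183 CPM and BCL2 had 27.9, 33.9 and 27.6 CPM against 30, 30.1 and 23.5 CPM (adjusted p = 1 for both). Among proapoptotic genes BMF had 150, 174 and 140 CPM against 233, 250 and 240 CPM (adjusted p = 0.81), BBC3 (PUMA) had 26.6, 27.4 and 25.8 CPM against 34.2, 39.3 and 42.6 CPM (adjusted p = 1), and BID had 34.4, 31.7 and 36.9 CPM against 18.2, 22.6 and 25 CPM (adjusted p = 0.129). None of these 3 overlapped between groups, but they were named for a small p within their list in these same libraries.

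Of 27 tested genes of myeloid differentiation 0 were called and 1, a granule protease, was lower with the block, with a list median of -0.33. CTSG (cathepsin G) had 215, 315 and 418 CPM against 122, 152 and 231 CPM (log2 -0.91 ± 0.31, adjusted p = 0.332, and 0.00729 with the block). The other granule proteases PRTN3, at 3710, 5380 and 6650 CPM against 1690, 2800 and 3330 CPM, and ELANE, at 3200, 4150 and 5680 CPM against 2070, 2770 and 3610 CPM, did not pass (adjusted p = 0.421 and 0.467, and 0.0567 and 0.129 with the block). Lysozyme (LYZ) had 981, 936 and 739 CPM against 585, 591 and 499 CPM (adjusted p = 0.374), whereas FPR1, a receptor of mature myeloid cells, had 70.1, 78.9 and 61.8 CPM against 58.4, 74.4 and 71.4 CPM. Glycolysis and hypoxia response genes (28 tested) had a median of -0.26 and 0 calls in both fits with 42 libraries. In the 6-library fit with the block 11 were lower and 3 higher (14% and 12% of all genes were). LDHA had 245, 240 and 235 CPM against 169, 167 and 144 CPM (adjusted p = 0.477).

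The 31 genes were then followed in the same drug comparison in polysomes, in everolimus alone and in RPMI, each with 3 libraries a group. In heavy polysome RNA of the same cultures all 31 had a fitted change below 0 (48.5% of all genes did), from -1.45 to -0.28, and 5 were called lower there: TEF, CDC25A, FKBP4, IDI1 and PLD6. With the block 18 were lower. The 11 calls over all genes in polysomes depended on single cultures, each left out with its input and polysome libraries. Of calls 0 were left without any 1 of combo replicates 1, 2 and 3 or quizartinib replicate 2, and 1 without quizartinib replicate 3. Without quizartinib replicate 1 there were 15. CDC25A was at 25.8 ± 2.66 CPM (SD, n = 3) in polysomes under quizartinib and 12.1 ± 2.76 CPM (SD, n = 3) in the combo, and HSPA5 at 573 ± 305 and 343 ± 77.7 CPM (SD, n = 3 each), the latter within the spread of the former (adjusted p = 0.327).

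Everolimus without quizartinib was measured against vehicle in hBMSC-CM in 6 other libraries. There 24 genes were lower (0.185% of those tested). Same-numbered libraries did not deviate together there (correlations -0.01, 0 and -0.01), so no block is used. Mitochondrially encoded messages took 3.67%, 4.08% and 4.25% of counts in everolimus replicates 1, 2 and 3, and 7.05%, 3.19% and 3.17% under vehicle. In replicate 1 of every other input group this share was 7.05% to 10.2%. The labels do not say whether the everolimus libraries were prepared apart, and an effect of batch on this comparison was not tested. Of 53 calls in both directions, 13, 11 and 9 were left without everolimus replicates 1, 2 and 3, and 23 and 16 without vehicle replicates 1 and 3. Without vehicle replicate 2 there were 63. Of the 31 genes all 31 were below 0 (52% of all genes were), with a median of -0.74, and 4 were lower (CCDC86, FKBP4, HSPA5 and IDI1). HSPA5 had a log2 change of -1.24 ± 0.28 there (adjusted p = 0.0313) and IDI1 of -1.28 (adjusted p = 0.00497). Cholesterol synthesis and uptake had a median of -1.05 under everolimus alone and -0.63 when everolimus was added to quizartinib, with 8 against 1 genes lower. Ribosome biogenesis had a median of -0.35 under everolimus alone against -0.65, with 0 against 2 genes lower. In the test of the difference between the 2 effects 0 genes passed in edgeR, 213 had an unadjusted p under 0.05, and DESeq2 called 2.

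In RPMI, a standard medium, adding everolimus to quizartinib lowered 1 gene (0.00773% of those tested). It was MPP2, a membrane scaffold, which had 38 reads over the 3 quizartinib libraries and 0 in the 3 combo libraries, at least 11.4-fold lower against a floor of 3 counts over the group. This call was not made without combo replicate 2 or 3 or quizartinib replicate 2 in RPMI, where 0 genes passed. With the block the 42 libraries also gave 1 call and the 6 RPMI libraries alone 415. Of the 31 genes 27 were below 0 in RPMI (53.3% of all genes were), with a median of -0.31, and 0 were called. The difference in effect between media was -2.55 ± 0.62 (log2) for SLC39A14, -1.11 ± 0.25 for UMPS and -0.9 ± 0.39 for HSPA5, and 1.05 ± 0.35 for PIM2, and 0 genes passed edgeR's test of this difference (218 at an unadjusted p under 0.05, DESeq2 0). With the replicate block the difference gave 0 calls over 42 libraries, 1 with a block for each fraction, and 156 in the fit of the 12 libraries compared, 121 lower and 35 higher, so that the call depended on the fit. This difference shares the 6 libraries with the main comparison, which chose the 31 genes.

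**Figure D4:**
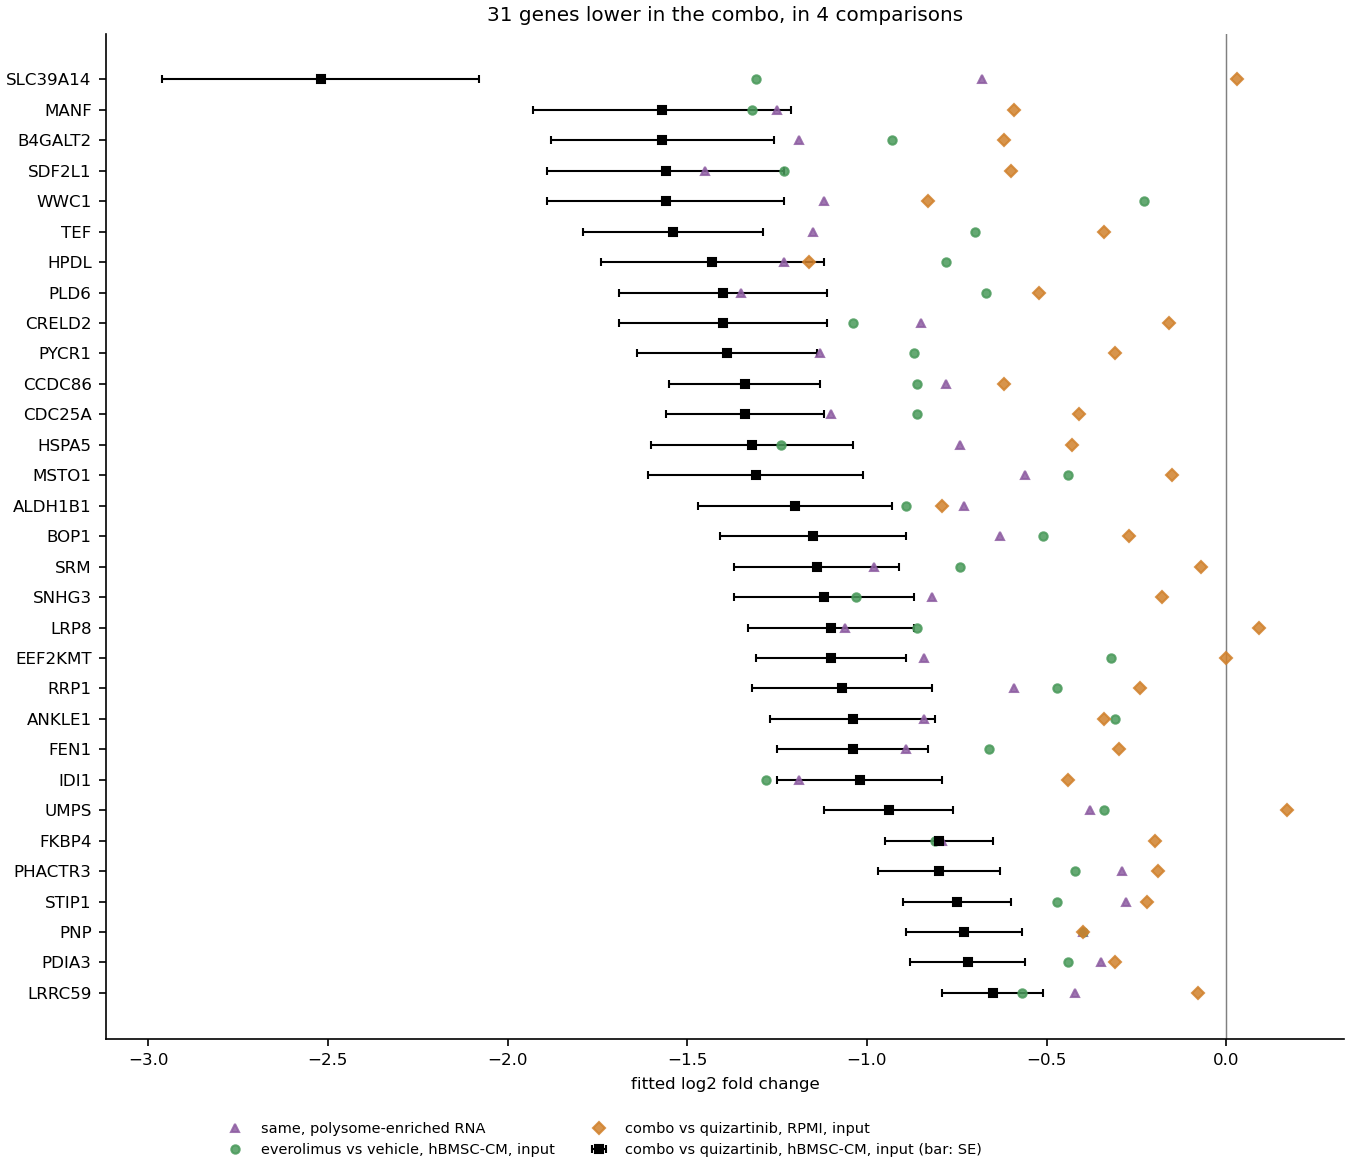
Fitted log2 fold changes of the 31 genes called lower in the combo, in 4 comparisons. Black squares with SE bars are combo against quizartinib in hBMSC-CM input RNA, which chose the genes, purple triangles the same in polysome RNA, green circles everolimus against vehicle and orange diamonds combo against quizartinib in RPMI. Polysome and everolimus values all lie below 0, while 27 of the RPMI values do.

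Within hBMSC-CM the 31 genes had their highest mean input levels under vehicle. All 31 had a lower mean under quizartinib than under vehicle in hBMSC-CM, and all 31 were lower in the combo than under everolimus alone. The combo mean was below that of quizartinib in RPMI for 9 of the 31, and the quizartinib mean in hBMSC-CM was above that in RPMI for 28. HSPA5 was at 1490 ± 160 CPM under vehicle, 986 ± 195 under quizartinib, 632 ± 43.8 under everolimus and 394 ± 132 in the combo in hBMSC-CM (SD, n = 3 each), and at 980 ± 176, 295 ± 50.2 and 219 ± 35.5 CPM under vehicle, quizartinib and combo in RPMI. SLC39A14 fell from 19.4 ± 2.25 CPM under vehicle in hBMSC-CM to 1.15 ± 0.391 CPM in the combo, beside 1.3 ± 0.781 CPM under quizartinib in RPMI. IDI1 was at 22.2 ± 0.371 CPM under everolimus alone and at 21.8 ± 2.47 CPM in the combo, which do not differ beyond their spread. PIM2 was at 76 ± 14.9 CPM in the combo, 39.2 ± 1.54 under quizartinib and 27.4 ± 0.463 under vehicle in hBMSC-CM, against 6.07 ± 1.39 CPM in the RPMI combo. These levels are a description with no test, since the 31 genes were chosen in part of the same libraries. The everolimus libraries lacked the replicate pattern of the other input groups, and an effect of batch on these levels was not tested.

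**Figure D5:**
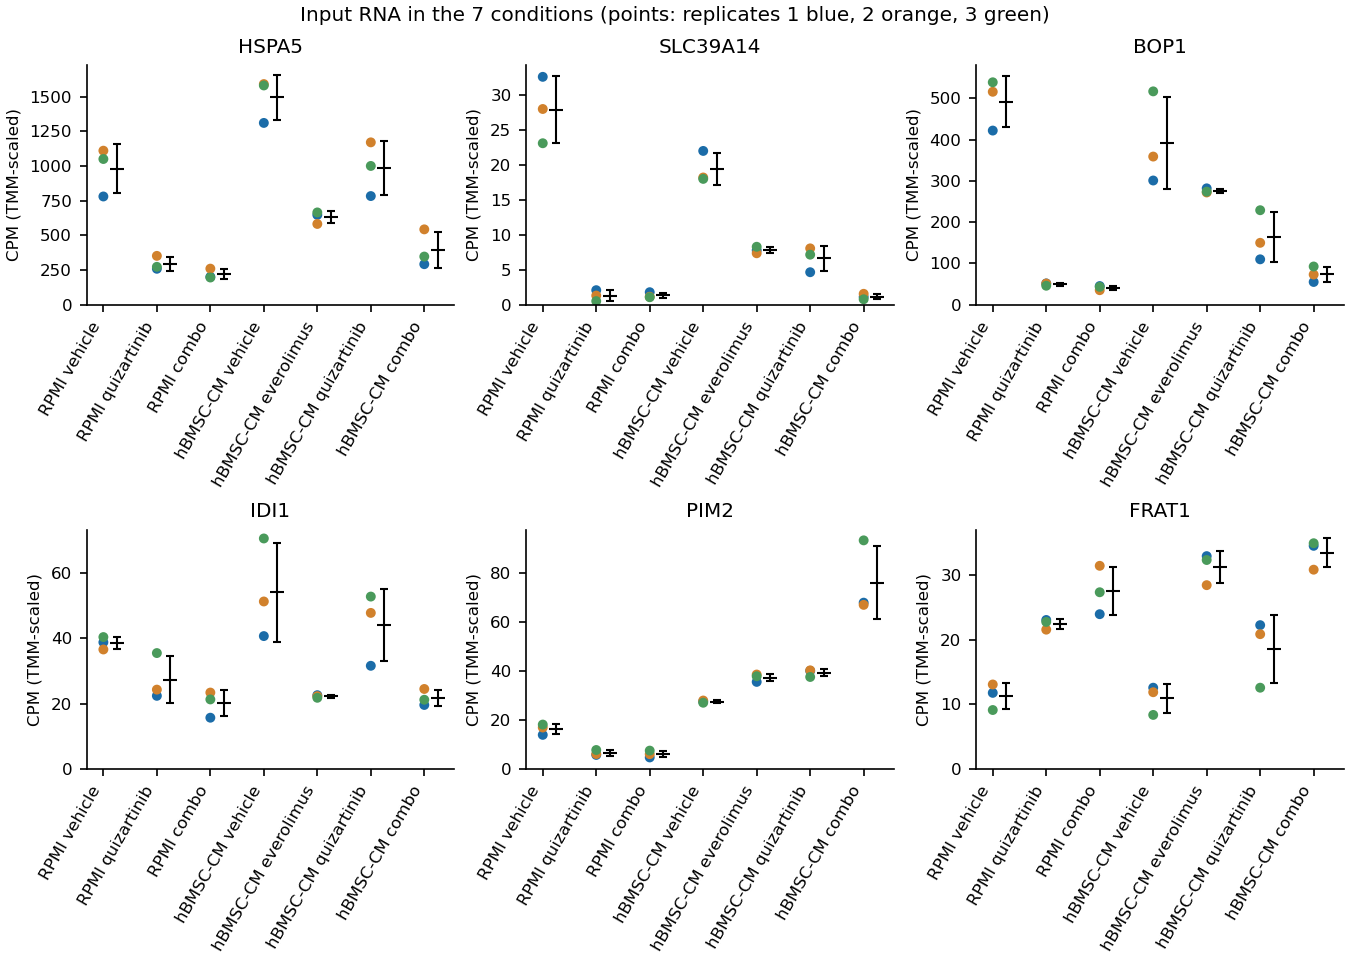
Levels of 6 genes in the 7 input conditions, in TMM-scaled CPM on axes that start at 0. Points are libraries colored by replicate number and black bars give the mean and SD of 3 libraries. HSPA5, SLC39A14 and BOP1 are highest under vehicle within each medium, IDI1 is at like levels with everolimus alone and with the combo, PIM2 is highest in the hBMSC-CM combo and FRAT1 is higher with everolimus than without it in hBMSC-CM.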

How the data were processed

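MOLM-13 cells gave 42 libraries in 14 groups of 3, from input RNA or from RNA of heavy polysomes. Library construction by the authors used poly(A) selection, followed by paired-end reads on a NovaSeq6000. The authors trimmed reads with BBDuk, aligned them with STAR 2.6.0a to hg38 and deposited raw read counts per gene, with no normalization. Whether counting used strand is not stated. The 58884 gene rows were summed by name (150 names with several rows), and genes averaging under 1 count or under 1 CPM over the libraries were dropped (12939 genes and 99.8% of counts remained). All columns were matched to samples by name and 0 were left unused.

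The main test was the robust quasi-likelihood fit of edgeR 4.0.16 in R 4.3.3 over all 42 libraries. It had a mean for each of 14 groups, scaling by TMM and no term for the replicate number or the culture. Changes are log2 fold changes, a gene was called at a Benjamini-Hochberg adjusted p under 0.05, and changes within a pair used log2 CPM with a prior count of 2. Alternatives were limma 3.58.1 voom, DESeq2 1.42.0, RLE factors, library size alone, other filters, fewer libraries, the replicate number as a block and each culture left out. The numbers were taken to pair the libraries because same-numbered libraries deviated together in all 3 pairs (0.66, 0.44 and 0.65 in input, 0.55, 0.72 and 0.65 in polysomes, 0.54, 0.35 and 0.52 in RPMI), but not for everolimus and vehicle. The fits were tested on simulated data. There each library was drawn separately, with no link between the input and polysome libraries of a culture. A replicate shift, where used, went to all groups, everolimus included. The simulation thus does not cover these features of the data. The libraries had no stated molecular identifiers and reads need not be separate molecules, so a floor of 3 counts covers counting error only.

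Named genes were all called genes, the 10 largest rises and falls at 10 CPM or more that passed with the block and moved alike in 3 pairs, up to 4 members of each list with the smallest p, and fixed genes of mTOR, FLT3, ER stress and metabolism. The genes of the last 2 kinds are named in part, and some genes that the rule names are not reported here. The 34 lists were written by hand. The comparison and the lists were chosen with earlier results of these data known. GENCODE v44 (GRCh38) gave positions and overlaps, while the authors counted on another annotation of that assembly. Protein sequences were not analysed here, and the series held no library of everolimus alone in RPMI.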

Additional observations from a re-analysis of the deposited data

Results flagged for a closer look

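A list was looked at again where its median change went 1 way in all 3 pairs of this comparison and the other way in all 3 pairs of another. The difference itself was not tested in the cases below. Neither RPMI nor everolimus alone shares a library with the comparison of combo with quizartinib in hBMSC-CM.

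Myeloid differentiation had a median log2 change of -0.33 when everolimus was added to quizartinib in hBMSC-CM (pairs -0.39, -0.17 and -0.35) and of 0.21 under everolimus alone (0.46, 0.08 and 0.08 between same-numbered libraries), a difference of -0.54. Replicate numbers did not pair the everolimus and vehicle libraries (correlations -0.01, 0 and -0.01), so these 3 values depend on an arbitrary matching. Translation factors had a median of -0.09 in hBMSC-CM (pairs -0.04, -0.09 and -0.06) and 0.02 in RPMI (pairs 0.09, 0.04 and 0.03), a difference of -0.11. ERK feedback genes had a median of 0.09 in hBMSC-CM (pairs 0.05, 0.03 and 0.25) and -0.04 in RPMI (pairs -0.04, -0.03 and -0.3), a difference of 0.13. All genes tested had medians of 0, -0.02 and -0.02 in hBMSC-CM, RPMI and everolimus alone.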

How the results depend on the processing

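The replicate block gave 154 calls for combo against quizartinib in hBMSC-CM input RNA against 31 without it, 380 when set within each fraction and 3367 with the 6 libraries alone, whereas these 6 without pairing gave 0. Polysome calls were 11 without the block and 153, 643 and 1299 with it in the same order, and everolimus alone 53 against 244, 675 and 47 (55 with its 6 libraries alone and no block), where the numbers do not pair the libraries. In RPMI the block with the groups alone gave 415 calls against 1, the difference between media 156 against 0 (1 within fractions) and the difference with and without quizartinib 2 against 0 (1 within fractions).

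Among the other settings, the 31 calls became 102 with DESeq2, 18 with library size alone, 80 without the filter and 203 with input libraries only, and 25, 26 and 40 with voom, RLE factors and the stricter filter. Of the 31 genes 24, 31, 26, 14, 21, 28 and 30 were shared with voom, DESeq2, RLE factors, library size alone, no filter, the stricter filter and input libraries only. Polysome calls became 127 (DESeq2), 3 (library size alone), 57 (no filter), 27 (stricter filter) and 0 (polysome libraries only, or the groups alone). The RPMI call became 0 with voom, the stricter filter, input libraries only or the groups alone, 2 with DESeq2 and 14 without the filter. Everolimus alone gave 103 calls with voom, 164 with DESeq2, 96 without the filter and 476 with input libraries only. Without the filter the differences gave 4 calls (media) and 8 (quizartinib), and DESeq2 gave 2 for the latter. With a replicate left out, calls ran from 3 to 74 (combo against quizartinib, input), 0 to 15 (polysome), 0 to 3 (RPMI), 9 to 63 (everolimus alone), 0 to 1 (difference between media) and 0 to 0 (difference with quizartinib).

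Small changes that took either sign with 1 culture left out are given by their lowest and highest log2 values. These were -0.248 and 0.0406 for MTOR and -0.402 and 0.0298 for RPS6KB1, both highest without combo replicate 3. DDIT4 ran from -0.39 to 0.249 (0.000304 and 0.0371 without combo replicates 1 and 2), ATF4 from -0.194 to 0.597 (-0.0459 and -0.105 without quizartinib replicates 1 and 2) and DDIT3 from -0.466 to 0.102. BCL2 ran from -0.157 to 0.00795 (0.00384 without quizartinib replicate 2), SREBF1 from -0.231 to 0.0208 (0.0103 without combo replicate 1) and FPR1 from -0.132 to 0.0579 (0.0449 without quizartinib replicate 2). The cause of these shifts was not tested. Input libraries held 19.4 to 37.2 M counts, and genes under 1 CPM on average were not tested.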
